A study of Mus musculus with 18 samples.

Results

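Retinoic acid, the active form of vitamin A, was followed at the RNA level through 10 genes for its uptake, synthesis, binding, sensing and degradation: Stra6, Aldh1a1, Aldh1a7, Aldh1a2, Aldh1a3, Crabp1, Crabp2, Rarb, Cyp26b1 and Cyp26a1. They were taken by symbol from the 23420 rows of each of 3 tables of normalised reads for their place in the pathway. All 10 genes were found in each table.

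Whole embryonic lungs had been collected from mice at 14.5 dpc (days after conception) for RNA-seq. The deficient lungs had the genotype Rptorf/f; ShhCre/+, Tfamf/f; ShhCre/+ or Cox10f/f; ShhCre/+, where f is a floxed allele and Cre recombinase, expressed from the Shh locus, deletes it in the lung epithelium. The control lungs came from littermates of the genotype Rptorf/+; ShhCre/+, Tfamf/+; ShhCre/+ or Cox10f/+; ShhCre/+, so that all 18 samples carried Cre at 1 Shh allele and at least 1 floxed allele. Rptor encodes a component of mTOR complex 1, Tfam maintains mitochondrial DNA and Cox10 is needed for cytochrome c oxidase. Samples are called lungs for short, although the sources used here do not state whether a sample came from 1 embryo. Each line had 3 control and 3 deficient samples, 18 in all, and the comparison of the 2 states within a line asks how loss of each gene from the epithelium altered expression in the lung.

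In embryonic tissues retinol is taken up, oxidised to retinaldehyde by retinol dehydrogenases and then to retinoic acid by retinaldehyde dehydrogenases of the Aldh1a family. Retinoic acid binds nuclear receptors of the RAR family, which pair with RXR receptors on direct repeats of a short half-site near target genes. Enzymes of the Cyp26 family break it down, and several genes of the pathway, such as Rarb and Cyp26a1, are themselves classical targets. In the lung the pathway is known for its part in the formation of the primordium and in the balance between branching and differentiation.

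Recovered read totals were 27675601 to 29704748 per sample, and the replicate chi-square per gene lay between 4.11 and 31.8 within groups, where sampling noise gives about 1. In whole lung, the targeted gene did not separate the groups. Rptor had 2197 to 2298 normalised reads in control and 1986 to 2442 in Rptor-deficient lungs, Tfam had 1057 to 1185 in control and 939.9 to 1107 in Tfam-deficient lungs, and Cox10 had 753 to 824 in control and 743 to 829 in Cox10-deficient lungs. The lungs held all 6 epithelial markers listed (Epcam, Cdh1, Nkx2-1, Krt8, Krt18, Cldn4). Of these, 6 were lower at an adjusted p below 0.05 by limma in Rptor-deficient lungs, 2 in Tfam-deficient and 1 in Cox10-deficient lungs. Over all genes tested, 18.2%, 2.63% and 0.335% were. In the order listed, the log2 fold changes in the Tfam line were -0.05, -0.55, -0.22, -0.29, -0.08 and -0.36. In the Cox10 line the markers stood at -0.30, -0.43, -0.45, -0.47, -0.30 and -0.73. Their summed level was 22548 to 23176 in Rptor controls and 9149 to 12147 in Rptor-deficient lungs, 19905 to 21239 and 16038 to 18256 in the Tfam line, and 16752 to 17198 and 11416 to 14907 in the Cox10 line. Cox10-deficient replicate 3 stood apart from the other 2 Cox10-deficient lungs: 5 endothelial markers summed to 28476 in it, against 18080 and 19550 in the others. Of markers of neighbouring organs, Nppa (heart) rose in Tfam-deficient lungs, by a log2 fold change of 2.29 (adjusted p = 0.000273 by limma), with the 4 heart markers summing to 2685 to 7108 in controls and 4706 to 14188 in deficient lungs. Afp (liver) rose in Rptor-deficient lungs, by 1.44 (adjusted p = 0.0323 by limma), with liver sums of 106.9 to 176 and 175 to 683. Of 4 markers of oesophagus and trachea, Krt5 and Krt13 were uneven among Tfam-deficient lungs. The means were 64.7 ± 87.1 (SD) and 22.5 ± 36.4, against 9.42 and 1.34 in controls. Krt5 did not pass (adjusted p = 0.267 by limma), and Krt13 was below the filter. The part of neighbouring organs in the results was not tested. Rptor-deficient replicate 1 stood apart in several genes of the pathway described here. The fold changes were also computed without either library. In whole lung, fewer cells of a type cannot be told apart from less RNA per cell.

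The promoters of Rarb and Cyp26a1 hold a repeat of the kind that RAR and RXR receptors bind. Each promoter window runs from 250 bases before to 50 after an annotated start and was taken from RefSeq (build GRCm38.p6, the mm10 assembly named in the submitters' processing notes), where 8 of the 10 genes had an entry. Aldh1a3 and Crabp2 had none. Both strands were searched for direct repeats of a half-site (NGNTNA, with A or G as the first base, G or T as the third and C or G as the fifth) with 5, 2 or 1 bases between. Among the 12 windows of these 8 genes, only those of Rarb and Cyp26a1 held a repeat. Both had a spacing of 5, which 106 of all 32851 promoter windows held (0.323%), and neither overlapped a repeat of another spacing. The spacings of 2 and 1 were held by 0.472% and 0.609% of all windows. The windows are shown with the repeat in capitals.
Rarb, chr14:16575427-16575726, minus strand, an internal start of the gene: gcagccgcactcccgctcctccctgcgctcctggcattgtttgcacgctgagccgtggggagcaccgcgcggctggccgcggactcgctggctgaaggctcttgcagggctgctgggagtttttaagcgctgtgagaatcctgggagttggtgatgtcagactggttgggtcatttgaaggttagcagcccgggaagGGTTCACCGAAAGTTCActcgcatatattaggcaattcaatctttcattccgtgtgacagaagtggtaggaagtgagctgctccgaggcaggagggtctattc
Cyp26a1, chr19:37697558-37697857, plus strand: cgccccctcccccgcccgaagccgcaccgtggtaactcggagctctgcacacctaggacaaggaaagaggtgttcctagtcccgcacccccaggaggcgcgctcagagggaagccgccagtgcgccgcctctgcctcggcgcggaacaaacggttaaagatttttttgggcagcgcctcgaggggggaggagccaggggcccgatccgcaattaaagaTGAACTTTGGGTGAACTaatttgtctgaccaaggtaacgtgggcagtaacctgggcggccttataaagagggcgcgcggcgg
In Rarb the repeat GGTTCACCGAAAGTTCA lies 53 to 37 bases before the start on the strand of the gene. In Cyp26a1 the repeat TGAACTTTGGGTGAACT lies 32 to 16 bases before the start, on the opposite strand. These are matches of letters, shown because both genes are classical targets of the pathway, and they do not show that a receptor was bound in these lungs.

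The synthesis genes Aldh1a7 and Aldh1a2 had the highest levels in the controls of all 3 lines, and the order of the others differed in part. Per kilobase of exon, on the scale of normalised reads, Aldh1a7 led in Rptor controls at 1868 ± 137 (SD, n = 3), followed by Aldh1a2 at 888 ± 92.0. Crabp1, Crabp2, Cyp26b1, Rarb and Aldh1a1 came next at 193, 151, 131, 118 and 115 reads per kilobase, and each of these overlapped its neighbour in this order over the 3 samples. Stra6 was lower at 38.4 ± 5.08, Aldh1a3 at 7.77 ± 1.40 and Cyp26a1 at 2.51 ± 1.81, without overlap between them. Tfam controls had the same leading genes, with Aldh1a7 at 1501 ± 111 and Aldh1a2 at 959 ± 22.7. In Cox10 controls the first 2 places were exchanged, with Aldh1a2 at 1833 ± 118 and Aldh1a7 at 1109 ± 41.1. Stra6 (86.6) also stood above Aldh1a1 (68.1) there without overlap, the reverse of the other lines, and Crabp2 above Crabp1 with overlap. The exon length counts every annotated isoform, so that a gene with many isoforms, such as Aldh1a1 or Stra6, may be placed too low. The tables of the 3 lines had been scaled separately, and no test was made between them.

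**Figure D1:**
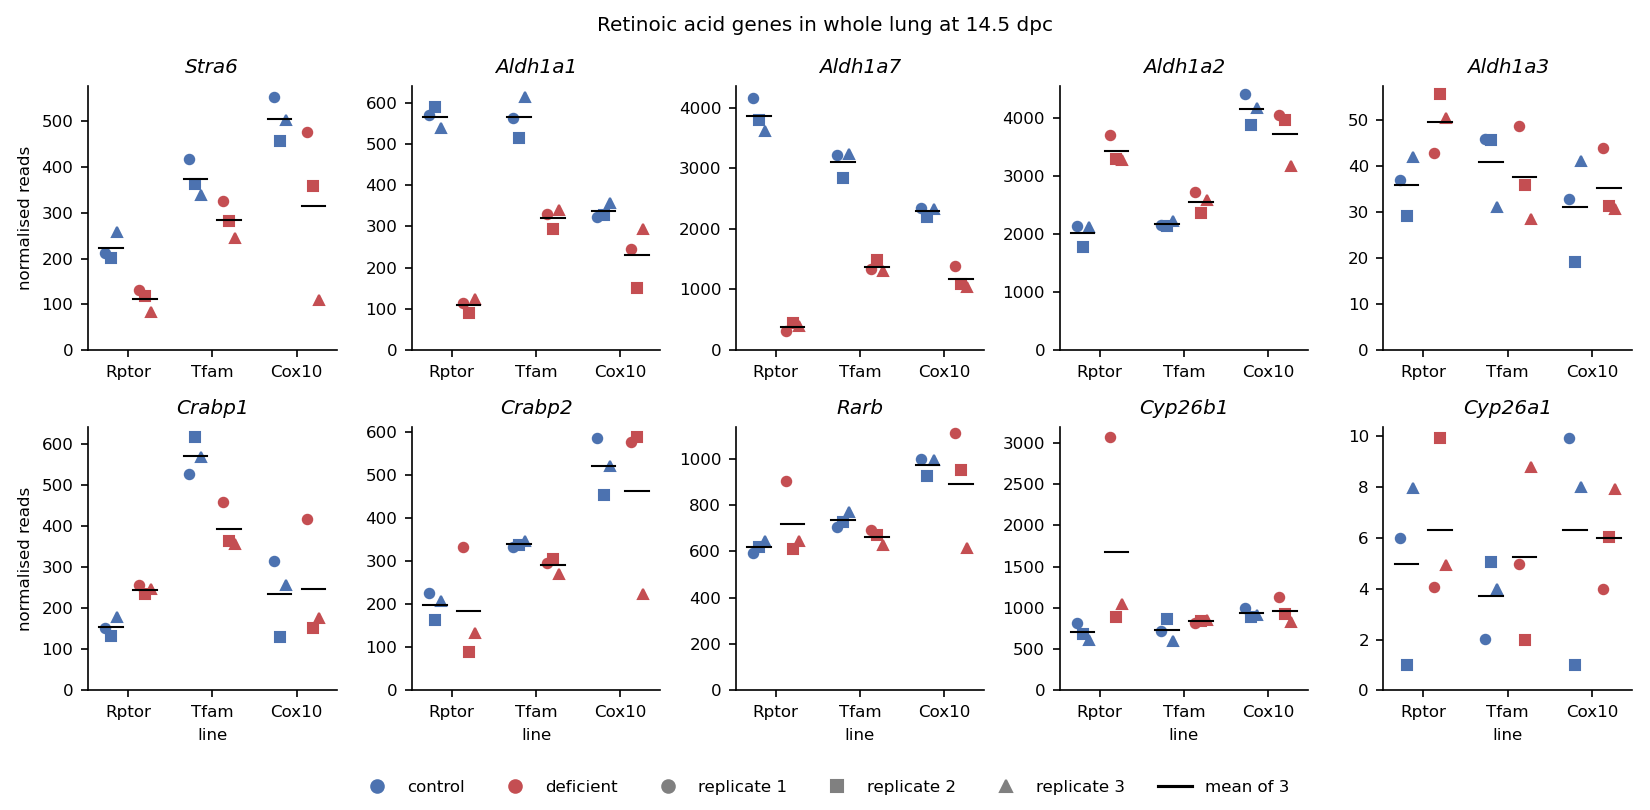
Normalised reads (linear axis from 0) of the 10 retinoic acid genes in each of the 18 samples, by line, with controls in blue, deficient lungs in red and a black bar for the mean of 3. Aldh1a7 and Aldh1a1 separate the states most clearly in the Rptor line, Aldh1a2 is higher in Rptor-deficient lungs, and single libraries (Rptor-deficient replicate 1 in Cyp26b1, Cox10-deficient replicate 3 in Stra6) lie far from their replicates.

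In Rptor-deficient lungs, 5 of the 9 genes tested passed the threshold of an adjusted p below 0.05 in limma: Aldh1a1, Aldh1a7 and Stra6 fell, and Aldh1a2 and Crabp1 rose. Over all 14940 genes tested in that line, 34.8% passed. In Tfam-deficient lungs 3 of 9 passed, all lower (Aldh1a1, Aldh1a7 and Crabp1), where 4.66% of all 15053 genes passed and 2.63% passed as lower. In Cox10-deficient lungs 1 of 9 passed, Aldh1a7, which fell, where 0.475% of all 14937 genes passed, 0.335% as lower and 0.141% as higher. The values of the 3 deficient and 3 control lungs did not overlap for 7 of the 9 genes after Rptor loss (50.3% of all genes tested), for 7 after Tfam loss (22.8% of all genes) and for 2 after Cox10 loss (21.3% of all genes). By unadjusted p below 0.05, the counts were 6, 6 and 2 of 9, beside 45.6%, 17.4% and 13% of all genes. The 9 genes had a median log2 fold change of 0.20 (Rptor), -0.23 (Tfam) and -0.17 (Cox10), against 0.0083, 0.00098 and 0.0014 over all genes tested. Cyp26a1 was below the minimum of 10 normalised reads in 3 samples in every line and was not tested.

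**Figure D2:**
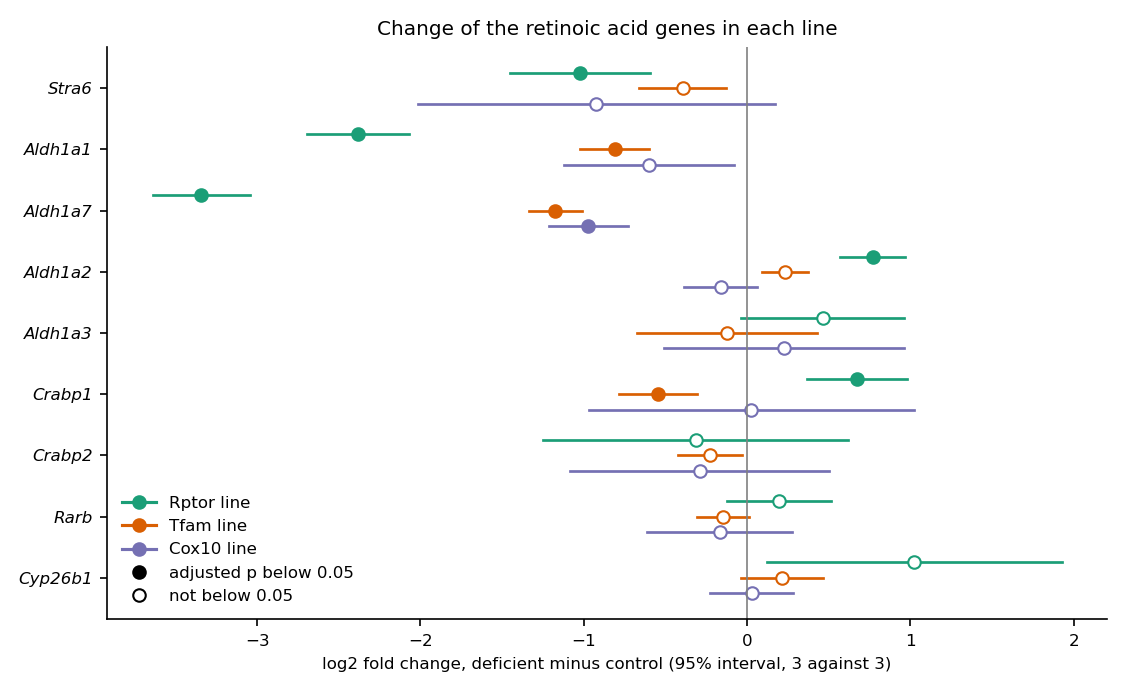
Log2 fold change of 9 retinoic acid genes (deficient minus control, 3 against 3 in each line) on the log2(normalised reads + 1) scale, with 95% intervals from limma. Filled points have an adjusted p below 0.05: 5 for Rptor, 3 for Tfam and 1, Aldh1a7, for Cox10.

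Aldh1a7 was the gene of the pathway that changed most. It lies on chromosome 19 (mm10 20692953 to 20727562, minus strand) and is a rodent duplicate of Aldh1a1, although its product is not counted among the main retinaldehyde dehydrogenases. In Rptor controls it had 4168, 3798 and 3612 normalised reads, and in Rptor-deficient lungs 307, 451 and 393. Every deficient lung was far below every control. The mean was 10.1 times lower, with a log2 fold change of -3.34 (standard error 0.130, adjusted p = 1.26e-05 by limma). In the Tfam line the controls had 3223, 2836 and 3243 and the deficient lungs 1337, 1479 and 1300.1. The groups were again apart, with a mean 2.26 times lower and a log2 fold change of -1.18 (standard error 0.0732, adjusted p = 8.58e-06 by limma). In the Cox10 line the controls had 2352, 2195 and 2329 and the deficient lungs 1394, 1092 and 1043. The mean was 1.95 times lower, with a log2 fold change of -0.97 (standard error 0.105, adjusted p = 0.0130 by limma). This call was lost when any 1 of the 3 Cox10 controls was left out, with adjusted p-values of 0.0926, 0.0865 and 0.118, while the fold change stayed between -1.10 and -0.89 over all 6 omissions.

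Aldh1a1, a cytosolic retinaldehyde dehydrogenase, lies 49487 bases from Aldh1a7 on the plus strand (mm10 chromosome 19, 20492715 to 20643465). It followed Aldh1a7 in direction and by a smaller amount. Rptor controls had 569, 588 and 539 normalised reads and Rptor-deficient lungs 113, 89.1 and 124. The groups were apart, and the log2 fold change was -2.38 (standard error 0.137, adjusted p = 2.45e-05 by limma), or 5.21 times lower by the means. Tfam controls had 563, 515 and 614 and Tfam-deficient lungs 331, 293 and 340.2, a log2 fold change of -0.81 (standard error 0.0953, adjusted p = 0.000677 by limma). Cox10 controls had 324, 328 and 357 and Cox10-deficient lungs 245, 149.8 and 294. These groups did not overlap, but the log2 fold change of -0.60 did not pass (standard error 0.224, adjusted p = 0.346 by limma), with replicate 2 of the deficient lungs farthest from the controls. Without Cox10-deficient replicate 3 it was -0.80 (adjusted p = 0.0921 by limma). Over all 6 omissions of 1 sample it ranged from -0.80 to -0.32, and 0 of them passed.

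The genes are close copies, and the reads of one can be assigned to the other. Their longest coding transcripts were identical at 1815 of 2011 aligned bases (90.3%), against 74.1% between Aldh1a1 and Aldh1a2. Of the 50-base windows of the Aldh1a7 transcript, 7.49% also occurred in Aldh1a1, and of the 100-base windows 0.0508%. How reads with several placements were counted is not given in the sources used here. Aldh1a1 had 2 promoter windows. The one at an internal start of the gene model shares 95 bases with the window of Aldh1a7, in 2 runs of at least 20 bases, the longest of 65 bases, shown in capitals. The other, at chr19:20492333-20492632, shares no run of that length.
Aldh1a1, chr19:20601718-20602017, plus strand, internal start: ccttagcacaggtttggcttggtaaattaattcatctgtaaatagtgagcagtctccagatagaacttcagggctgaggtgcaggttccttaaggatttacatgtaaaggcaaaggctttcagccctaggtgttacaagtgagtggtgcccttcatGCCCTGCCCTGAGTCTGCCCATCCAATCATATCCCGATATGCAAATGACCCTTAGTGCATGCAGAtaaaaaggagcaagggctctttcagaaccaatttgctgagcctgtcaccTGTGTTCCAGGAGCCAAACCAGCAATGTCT
Aldh1a7, chr19:20727507-20727806, minus strand: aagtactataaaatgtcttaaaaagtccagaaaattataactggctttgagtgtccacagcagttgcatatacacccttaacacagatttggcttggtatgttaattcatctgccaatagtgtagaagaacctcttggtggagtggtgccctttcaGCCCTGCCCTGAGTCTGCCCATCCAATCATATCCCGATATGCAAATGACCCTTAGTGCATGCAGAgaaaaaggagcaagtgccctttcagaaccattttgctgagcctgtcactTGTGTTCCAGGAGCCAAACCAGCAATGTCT
The shared runs lie between 94 bases before the start and the end of the window, while the bases further upstream share no run of 20. The fall of Aldh1a7 exceeded that of Aldh1a1. The ratio of Aldh1a7 to Aldh1a1 in normalised reads was 6.46 to 7.32 in Rptor controls and 2.71 to 5.06 in Rptor-deficient lungs. It was 5.28 to 5.73 in Tfam controls and 3.82 to 5.05 in Tfam-deficient lungs, so that the groups were apart in both lines. In the Cox10 line it was 6.53 to 7.27 and 3.55 to 7.29, which overlap.

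All 6 epithelial markers given above passed as lower after Rptor loss, as did both genes. After Tfam loss only Cdh1 and Cldn4 passed, and the groups overlapped for Epcam, Krt8 and Krt18. Epcam stood at -0.05 there (adjusted p = 0.862 by limma) and Krt18 at -0.08 (adjusted p = 0.676 by limma). After Cox10 loss only Cldn4 passed. Sox2, a gene of the proximal airway epithelium, fell after loss of Rptor or Tfam. Its log2 fold changes were -3.09 in Rptor-deficient lungs (adjusted p = 0.000164 by limma) and -0.51 in Tfam-deficient lungs (adjusted p = 0.0189 by limma). In Cox10-deficient lungs Sox2 stood at -0.60 and did not pass (adjusted p = 0.436 by limma). The part of these genes in the falls of Aldh1a7 and Aldh1a1 was not tested. Both genes were also set against epithelial reference genes. The reference was the average of Epcam, Cdh1 and Nkx2-1 on the log2 scale in each sample. Its genes changed unevenly. Cdh1 fell by 1.89 and Epcam by 0.77 on the log2 scale after Rptor loss. After Tfam loss the log2 fold changes were -0.55 for Cdh1, -0.22 for Nkx2-1 and -0.05 for Epcam. Relative to the reference, Aldh1a7 had a log2 difference of -2.17 (Rptor), -0.90 (Tfam) and -0.58 (Cox10), with no overlap between deficient and control lungs in any line. Aldh1a1 was at -1.21 and -0.54 in the Rptor and Tfam lines, with the groups apart, and at -0.20 in the Cox10 line, where they overlapped. These are descriptions of 3 against 3 samples with no test.

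**Figure D3:**
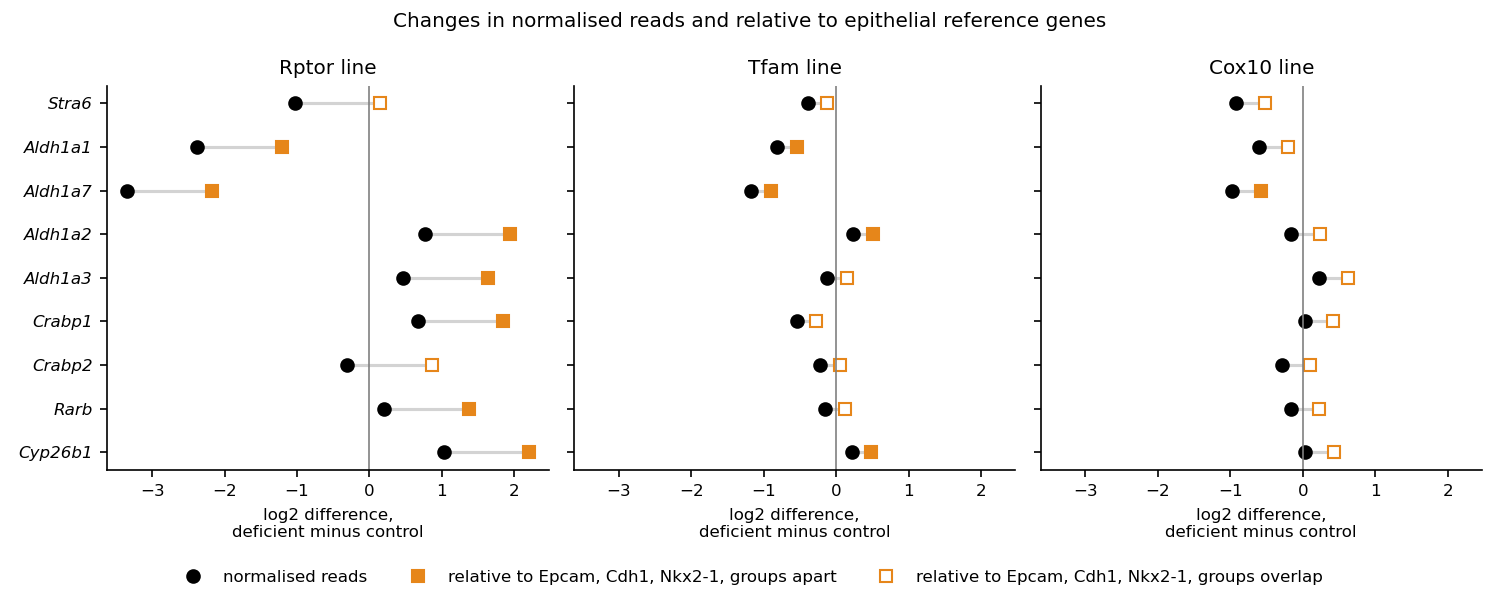
Log2 difference between the mean of 3 deficient and of 3 control lungs for 9 genes in each line, as normalised reads (black circles) and relative to the average log2 level of 3 epithelial genes, Epcam, Cdh1 and Nkx2-1 (orange squares, filled where the groups do not overlap). Aldh1a7 stays below 0 on both scales in all 3 lines, at -2.17, -0.90 and -0.58 on the relative scale, while Stra6 in the Rptor line moves from -1.02 to 0.15.

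Aldh1a2, the main retinaldehyde dehydrogenase of the early embryo and known from mesoderm and mesothelium (mm10 chromosome 9, 71215789 to 71296243, plus strand), went the other way. Rptor controls had 2139, 1769 and 2121 normalised reads and Rptor-deficient lungs 3704, 3284 and 3268. All deficient lungs were above all controls, with a mean 1.70 times higher and a log2 fold change of 0.77 (standard error 0.0872, adjusted p = 0.000494 by limma). In the Tfam line the controls had 2159, 2127 and 2228 and the deficient lungs 2713, 2358 and 2586. The groups were apart, but the log2 fold change of 0.23 did not pass (standard error 0.0639, adjusted p = 0.0734 by limma). DESeq2 on the recovered reads put it past the threshold (adjusted p = 0.0379). In the Cox10 line the controls had 4411, 3876 and 4159 and the deficient lungs 4046, 3961 and 3166, which overlapped, at a log2 fold change of -0.16 (standard error 0.0976, adjusted p = 0.502 by limma). The lowest value was that of replicate 3, and without it the fold change was -0.05 (adjusted p = 0.741 by limma).

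Some markers of mesothelium and mesenchyme moved with Aldh1a2 in the Rptor line. Of 5 mesothelial markers, Wt1, Upk3b, Lrrn4 and Upk1b rose, while Msln was low in both states, with means of 36.9 and 20.2 normalised reads and a log2 fold change of -0.93 (adjusted p = 0.0856 by limma). The sum of the 5, most of it Upk3b, went from 3579 to 4997 in controls to 7268 to 7893 in deficient lungs. Of 6 mesenchymal markers, Pdgfra, Tcf21 and Col1a1 rose, with log2 fold changes of 0.69, 0.77 and 1.14. Tbx4, Tbx5 and Foxf1 did not pass, at -0.04, 0.02 and 0.12. The sum of the 6 was 70817 to 84472 in controls and 131846 to 155432 in deficient lungs, and most of that difference was Col1a1, with means of 49722 and 109355. None of these markers was at 0 in any group, and their part in the rise of Aldh1a2 was not tested. In the Tfam line, where none of them passed, mesothelial sums were 5127 to 6874 in controls and 5833 to 8141 in deficient lungs.

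Aldh1a3, a retinaldehyde dehydrogenase known from sensory and craniofacial epithelia, stayed low. Its values ranged from 19.2 to 55.5 normalised reads over all 18 samples. The Rptor groups did not overlap, at 36.9, 29.0 and 41.8 in controls and 42.8, 55.5 and 50.4 in deficient lungs, but the log2 fold change of 0.46 did not pass (standard error 0.219, adjusted p = 0.133 by limma). The Tfam and Cox10 groups overlapped.

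The make-up of the family changed with these genes. Per kilobase of exon, Aldh1a7 held 62.4% to 67.0% of the 4 Aldh1a genes in Rptor controls and 8.18% to 12.8% in Rptor-deficient lungs, while Aldh1a2 held 28.5% to 33.4% and 85.4% to 90.0%. In the Tfam line Aldh1a2 held 36.2% to 38.7% in controls and 57.1% to 62.3% in deficient lungs, and in the Cox10 line 60.2% to 61.7% and 70.9% to 75.6%. Without Aldh1a7, the share of Aldh1a2 among the other 3 genes was 86.2% to 88.8% in Rptor controls and 97.6% to 98.1% in the deficient lungs. It was 88.2% to 89.2% and 93.8% to 94.0% for Tfam, and 95.8% to 96.4% and 95.5% to 97.9% for Cox10, where the ranges overlapped. These shares follow from the changes of the single genes and are no further test of them.

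The effects on Aldh1a7, Aldh1a1 and Aldh1a2 differed between the Rptor line and each mitochondrial line. The difference of effects (Rptor minus Tfam line, log2 scale, limma on all 18 samples) was -2.17 for Aldh1a7 (standard error 0.168, limma adjusted p = 6.09e-07), -1.57 for Aldh1a1 (standard error 0.249, adjusted p = 0.000854) and 0.54 for Aldh1a2 (standard error 0.130, adjusted p = 0.0144). Against the Cox10 line it was -2.37 for Aldh1a7 (standard error 0.168, limma adjusted p = 4.40e-07), -1.78 for Aldh1a1 (standard error 0.249, adjusted p = 0.000339) and 0.93 for Aldh1a2 (standard error 0.130, adjusted p = 0.000338). These were 3 of 9 genes in each case, where 11.2% and 7.49% of all 14548 genes differed. Between the Tfam and Cox10 lines 0 of 9 passed and 0.055% of all genes did, and by unadjusted p in limma Aldh1a2 was below 0.05 there (0.39, SE 0.130, unadjusted p = 0.00751). edgeR and DESeq2 on the recovered reads also gave 0 of 9.

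Stra6, a membrane receptor that takes up retinol from its carrier in the blood (mm10 chromosome 9, 58063788 to 58153996, plus strand), fell in the Rptor line. Controls had 212, 202 and 258 normalised reads and Rptor-deficient lungs 132, 118 and 84.0, with the groups apart, a mean 2.02 times lower and a log2 fold change of -1.02 (standard error 0.188, adjusted p = 0.00411 by limma). Relative to the epithelial reference the difference was 0.15, and the groups overlapped. In the Tfam and Cox10 lines this relative difference was -0.12 and -0.53, also with overlap. Whether Stra6 RNA came from the epithelium was not tested. Tfam controls had 419, 363 and 339 and Tfam-deficient lungs 327, 282 and 245. The log2 fold change was -0.40 (standard error 0.121, adjusted p = 0.106 by limma), and the groups were apart. Cox10 controls had 554, 457 and 504, and Cox10-deficient lungs 477, 358 and 109. The last of these, replicate 3, was far below the others, and the log2 fold change of -0.92 (standard error 0.472, adjusted p = 0.445 by limma) became -0.28 without it (adjusted p = 0.372 by limma).

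Crabp1, a cytoplasmic protein that binds retinoic acid (mm10 chromosome 9, 54764748 to 54773110, plus strand), was called in opposite directions in the Rptor and Tfam lines. Rptor controls had 153, 134 and 178 normalised reads and Rptor-deficient lungs 257, 235 and 246, apart, at a log2 fold change of 0.67 (standard error 0.134, adjusted p = 0.00590 by limma). Tfam controls had 528, 618 and 568 and Tfam-deficient lungs 459, 364 and 356, also apart, at -0.55 (standard error 0.109, adjusted p = 0.0161 by limma). The Tfam call was lost in limma without control replicate 2 (adjusted p = 0.0559), deficient replicate 2 (0.0688) or deficient replicate 3 (0.0796). With one spread for all 18 samples, neither the Rptor call (adjusted p = 0.0876 by limma) nor the Tfam call (adjusted p = 0.435 by limma) held. The difference of the 2 effects, 1.22, did not pass in limma on all 18 samples (standard error 0.431, adjusted p = 0.0747). It passed in limma with the replicate number as a block (adjusted p = 0.00663). Same-numbered samples of the Tfam line did not deviate together (r = -0.312, -0.207 and 0.151), so the block is no firm basis for this call. Cox10 controls had 315, 131 and 257 and deficient lungs 417, 152 and 176, and the widest spread among the lines was seen here, at a log2 fold change of 0.02 (standard error 0.430, adjusted p = 0.985 by limma).

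Crabp2, which carries retinoic acid to its nuclear receptors (mm10 chromosome 3, 87948666 to 87953376, plus strand), turned on a single library. Rptor controls had 227, 163 and 208 normalised reads, and Rptor-deficient lungs 334, 89.1 and 133. Replicate 1 was above and the other 2 deficient lungs were below every control. The log2 fold change was -0.31 (standard error 0.409, adjusted p = 0.584 by limma), and without replicate 1 it was -0.85 (adjusted p = 0.0131 by limma). In the Tfam line the groups were apart at 332, 339 and 347 against 297, 305 and 269.8, at -0.23 (standard error 0.0887, adjusted p = 0.214 by limma). In the Cox10 line replicate 3 of the deficient lungs had 223, against 578 and 588 in the other 2 and 588, 454 and 522 in controls. The log2 fold change was -0.29 (standard error 0.343, adjusted p = 0.723 by limma) with it and 0.17 without it (adjusted p = 0.515 by limma).

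Rarb, the receptor gene whose promoter holds the repeat shown above (mm10 chromosome 14, 16430839 to 16819156, minus strand), did not pass in any line. Rptor controls had 594, 619 and 644 normalised reads and Rptor-deficient lungs 904, 611 and 646. Again only replicate 1 was high, and the log2 fold change of 0.20 (standard error 0.139, adjusted p = 0.304 by limma) became 0.02 without it (adjusted p = 0.852 by limma). Tfam controls had 706, 729 and 771 and Tfam-deficient lungs 691, 669 and 629, apart, at -0.15 (standard error 0.0722, adjusted p = 0.319 by limma). The 95% interval ran from -0.31 to 0.01. Cox10 controls had 1000.5, 925 and 994 and Cox10-deficient lungs 1113, 952 and 613, at -0.17 (standard error 0.192, adjusted p = 0.717 by limma) and at 0.08 without replicate 3 (adjusted p = 0.683 by limma).

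Of the enzymes that remove retinoic acid, Cyp26a1 (mm10 chromosome 19, 37697798 to 37701536, plus strand), the other gene with the repeat, had 0.999 to 9.93 normalised reads in the 18 samples. Differences at this level were not detectable. Cyp26b1 (mm10 chromosome 6, 84571414 to 84593908, minus strand) was abundant. Rptor controls had 819, 682 and 609.7 normalised reads and Rptor-deficient lungs 3073, 889 and 1051. All deficient lungs were above all controls, with replicate 1 far above the rest. The log2 fold change of 1.02 did not pass in limma (standard error 0.396, adjusted p = 0.0752). It passed with the replicate number as a block (adjusted p = 0.0138), in edgeR on the recovered reads (adjusted p = 0.0486) and with one spread for all 18 samples (adjusted p = 0.0110 by limma). It also passed at 0.47 without deficient replicate 1 (adjusted p = 0.0196 by limma) and at 1.36 without deficient replicate 2 (adjusted p = 0.0339 by limma). Tfam controls had 720.3, 871 and 598 and Tfam-deficient lungs 816, 837 and 856, at 0.21 (standard error 0.115, adjusted p = 0.376 by limma). Cox10 controls had 998, 896 and 919 and Cox10-deficient lungs 1127, 932 and 829, at 0.03 (standard error 0.110, adjusted p = 0.927 by limma). The groups overlapped in both.

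Other genes of retinoid handling were counted from a list of 33 genes (carriers, storage, dehydrogenases, receptors, coregulators), of which 24 were tested in the Rptor line and 25 in each other line. In Rptor-deficient lungs 7 rose and 1 fell. Known response genes formed a second list of 16, of which 13 were tested for Rptor and 14 in each other line, and 6 of them rose in Rptor-deficient lungs and 0 fell. Together 14 of 37 passed there, 37.8% beside 34.8% of all genes. By direction, 13 of the 37 rose where 16.6% of all genes did, and 1 fell where 18.2% did. Without Rptor-deficient replicate 1, 15 of the 37 rose and 2 fell, beside 16.8% and 19.1% of all genes. In the same line 4 of 5 endothelial markers rose (summed level 25776 to 27184 in controls and 32362 to 36324 in deficient lungs), as did 4 of 5 mesothelial and 3 of 6 mesenchymal markers, and their part in the list counts was not tested. In Tfam-deficient lungs 2 of 39 passed, 5.13% beside 4.66% of all genes, and 1 of these was higher, where 2.03% of all genes were. In Cox10-deficient lungs 0 of 39 passed in limma (0.475% of all genes), 0 in edgeR and 0 in DESeq2. Without Cox10-deficient replicate 3, 1 of the 39 fell (Adh1) and 0 rose, beside 1.23% and 0.492% of all genes. By unadjusted p below 0.05 the counts were 19 of 37 (Rptor, 45.6% of all genes), 5 of 39 (Tfam, 17.4% of all genes) and 2 of 39 (Cox10, 13% of all genes). The response list had a median log2 fold change of 0.32 (Rptor), 0.07 (Tfam) and 0.07 (Cox10), and the pathway list 0.08, -0.04 and 0.03.

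**Figure D4:**
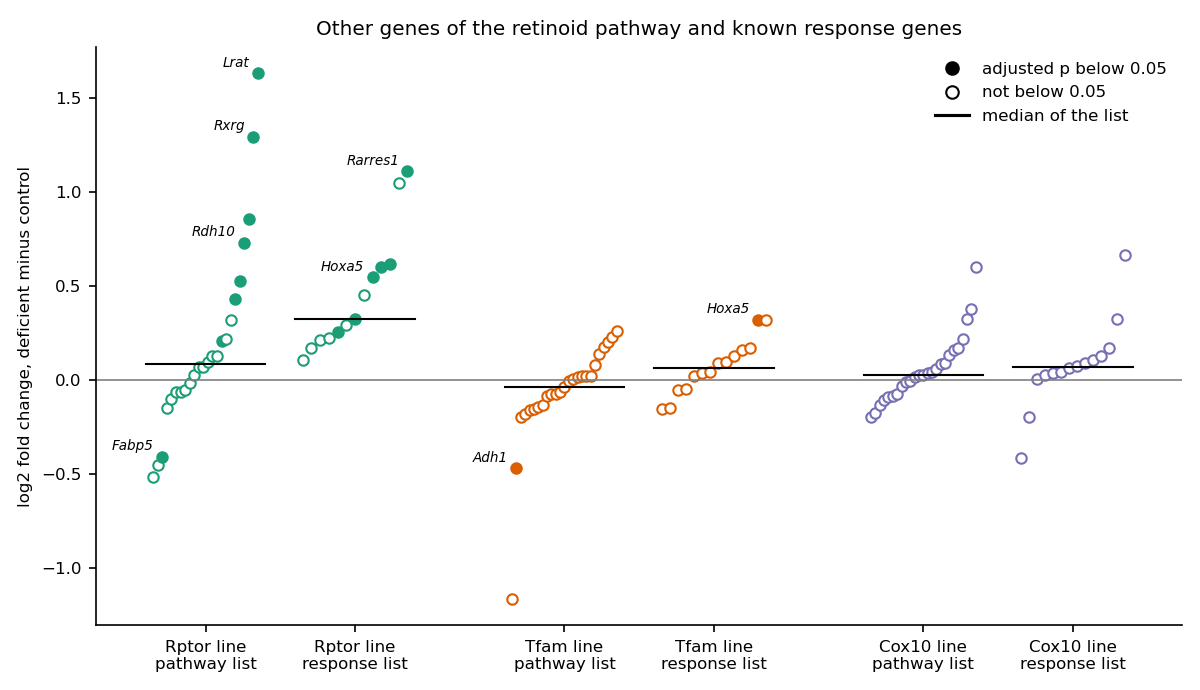
Log2 fold change (deficient minus control) of the tested genes of the pathway list and of the response list in each line, in rising order, with a black bar for the median and filled points where the adjusted p is below 0.05. In the Rptor line 13 of the 14 filled points lie above 0, and the Tfam line has 2 filled points, Adh1 and Hoxa5.

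The largest change among them was in Lrat, which stores retinol as retinyl esters. Rptor controls had 77.8, 27.0 and 60.7 normalised reads and Rptor-deficient lungs 176, 151 and 149, a log2 fold change of 1.63 (standard error 0.341, adjusted p = 0.00728 by limma). It was low, at 27.8 to 56.6, in all lungs of the other 2 lines, where it did not pass. Rxrg, a partner receptor of the RARs, had 14.0, 15.0 and 15.9 in Rptor controls and 39.8, 32.7 and 42.5 in deficient lungs, at 1.29 (standard error 0.232, adjusted p = 0.00373 by limma). Its Rptor controls stood below the 21.7 to 72.9 of all lungs in the other tables. Rarres1, a gene named for its response to retinoids, had 161, 167 and 183 in Rptor controls and 331, 342 and 439.7 in deficient lungs, at 1.11 (standard error 0.135, adjusted p = 0.000647 by limma). In the Cox10 line its groups were apart at a log2 fold change of 0.66, which did not pass (adjusted p = 0.316 by limma) and was 0.43 without deficient replicate 3 (adjusted p = 0.322 by limma).

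Hoxa5, a Hox gene of the lung mesenchyme, was the gene of both lists that rose in more than 1 line. Rptor controls had 2724, 2875 and 3048 normalised reads and Rptor-deficient lungs 4356, 3775 and 4523, at a log2 fold change of 0.55 (standard error 0.0779, adjusted p = 0.00133 by limma). Tfam controls had 5393, 5570.2 and 5724 and Tfam-deficient lungs 7029.9, 6929.8 and 6878, at 0.32 (standard error 0.0526, adjusted p = 0.00538 by limma). In the Cox10 line it did not pass, at 0.13 (standard error 0.0659, adjusted p = 0.445 by limma) and at 0.20 without deficient replicate 3 (adjusted p = 0.0505 by limma). The mesenchymal markers that moved with it in the Rptor line are given above, and none of the 6 passed in the Tfam line, where Pdgfra and Tcf21 were higher without overlap of the groups, at 0.19 (adjusted p = 0.0809 by limma) and 0.15 (adjusted p = 0.195 by limma). Their part in the rise of Hoxa5 was not tested.

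Adh1, an alcohol dehydrogenase that also oxidises retinol, fell in the Tfam line, from 18410.2, 18695 and 18236 to 12814, 14392 and 12842, at -0.47 (standard error 0.0645, adjusted p = 0.00184 by limma). This call was lost with one spread for all 18 samples (adjusted p = 0.424 by limma). Of 4 smooth muscle markers, Acta2, Myh11 and Tagln also fell in the Tfam line, by 0.34, 0.84 and 0.44 on the log2 scale, while Cnn1 did not pass. Their sum was 20606 to 23824 in controls and 15591 to 18319 in deficient lungs, none was at 0, and their part in the falls of Adh1 and Crabp1 was not tested. In the Rptor line Myh11, Tagln and Cnn1 fell and Acta2 rose. In the Rptor line controls had 15522, 20445 and 19675 and deficient lungs 9514, 13433 and 16748. These overlapped, and the log2 fold change of -0.51 did not pass (standard error 0.188, adjusted p = 0.0634 by limma) but passed with the replicate number as a block (adjusted p = 0.00387). Without Rptor-deficient replicate 1 it was -0.30 (adjusted p = 0.102 by limma). Without Rptor-deficient replicate 3 it was -0.70 and passed (adjusted p = 0.0154 by limma). Cox10 controls had 6204, 6127 and 6074, far below the controls of the other tables. Cox10-deficient replicate 3 had 13312, against 5231 and 5186 in the other 2. The log2 fold change of 0.22 (standard error 0.324, adjusted p = 0.789 by limma) turned to -0.24 without replicate 3 (adjusted p = 0.0197 by limma).

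The other 9 genes that rose in the Rptor line were Rdh10, Rdh14, Dhrs3, Rara, Nrip1, Hoxa4, Hoxb5, Meis1 and Nr2f2, and Fabp5, which binds fatty acids and retinoic acid, fell. Among these, 3 were singled out after their values were seen. Rdh10, the retinol dehydrogenase that supplies retinaldehyde in the embryo, had 901, 742 and 879 normalised reads in Rptor controls and 1498, 1309 and 1372 in deficient lungs, at 0.73 (standard error 0.0917, adjusted p = 0.000756 by limma). Dhrs3, which reduces retinaldehyde back to retinol, had 532, 469.6 and 569 and then 1510.3, 707 and 792, at 0.86 (standard error 0.248, adjusted p = 0.0276 by limma). Rara, a retinoic acid receptor, had 1569.7, 1393 and 1446 and then 2587, 1927 and 1902, at 0.53 (standard error 0.116, adjusted p = 0.00912 by limma). In Dhrs3 and Rara, Rptor-deficient replicate 1 was the highest, as in Cyp26b1, Crabp2 and Rarb, and all deficient lungs were still above all controls. Without that replicate the log2 fold change was 0.52 for Dhrs3 (adjusted p = 0.00501 by limma) and 0.38 for Rara (adjusted p = 0.00276 by limma). The Dhrs3 call was lost when any 1 of the 3 Rptor controls was left out (adjusted p = 0.0542 to 0.0993 by limma).

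**Figure D5:**
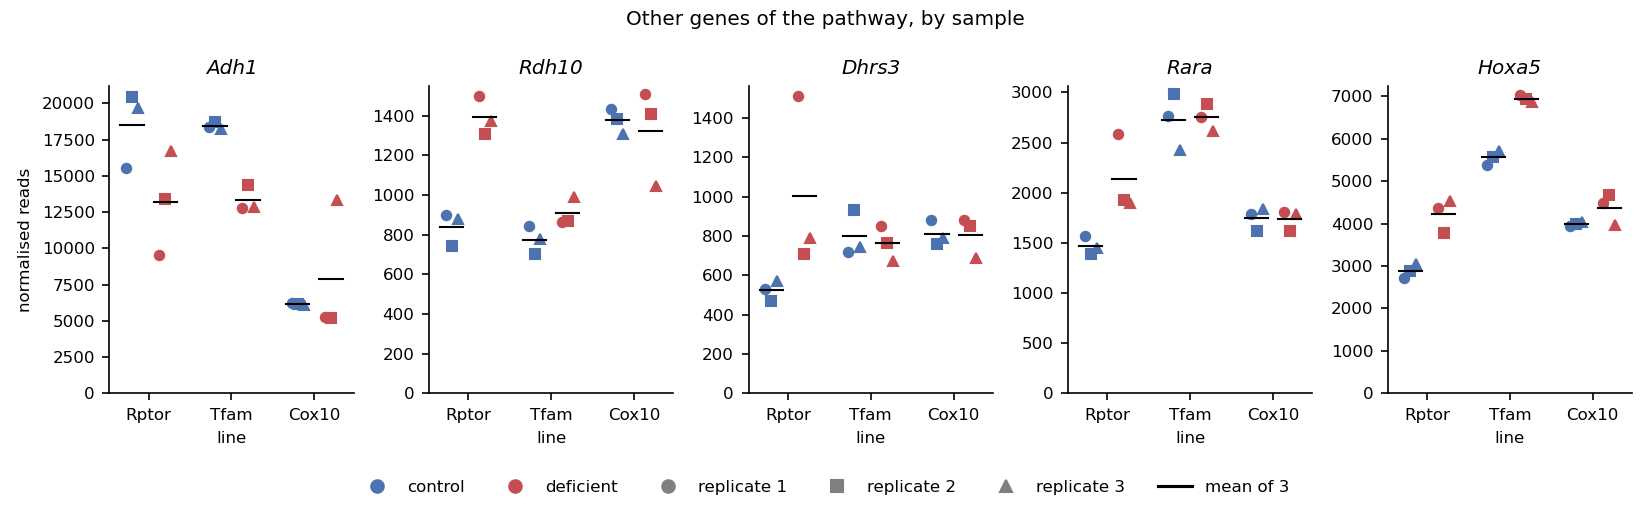
Normalised reads (linear axis from 0) of Adh1, Rdh10, Dhrs3, Rara and Hoxa5 in each of the 18 samples, with controls in blue, deficient lungs in red and a black bar for the mean of 3. Rptor-deficient replicate 1 leads its group in Dhrs3 and Rara, and Cox10-deficient replicate 3 stands above its group in Adh1 (13312 against 5231 and 5186).

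The genes with the most similar pattern were sought for the 5 genes called in at least 1 line, by Pearson correlation of log2 values centred on the controls of each line, over 18 samples and 12583 genes. The samples of a line share their controls and state, so the coefficients describe and do not test. Aldh1a1 was closest to Gpx2, Myb and Cldn10 (r = 0.980, 0.978 and 0.977), and Aldh1a7 to Cldn10, Homer2 and Crcp (r = 0.984, 0.983 and 0.982). Aldh1a1 and Aldh1a7 correlated with each other at r = 0.965. Aldh1a2 was closest to Crispld2, Rdh10 and Calb2 (r = 0.965, 0.964 and 0.958). Stra6 was closest to a gene whose symbol a spreadsheet had turned into a date (r = 0.960), then to Pcbp4 and Dact1 (r = 0.936 and 0.927), and Crabp1 to Wfikkn2, Cxcl13 and Synpo (r = 0.920, 0.900 and 0.896).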

How the data were processed

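RNA of whole lung at 14.5 dpc had been sequenced in 18 samples, 3 for each of 6 groups. Per the labels, reads were trimmed with Trim Galore, aligned to mm10 with HISAT2, counted with featureCounts and normalised with DESeq2, with versions not given in the sources used here. The authors deposited 1 table per line with a signal value per gene and sample, namely reads divided by a size factor. All values above 0 (100%) were whole multiples of 1 step per sample within a tolerance of 0.01, and whole reads were recovered from them. On these reads edgeR 4.0.16 called 5209, 696 and 68 genes for the Rptor, Tfam and Cox10 lines. Columns with the authors' own fold changes and p-values were not used.

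Genes with at least 10 normalised reads in at least 3 of the 6 samples of a line were tested with limma 3.58.1 in R 4.3.3 (trend, log2 of the value plus a pseudocount of 1), 3 deficient against 3 control samples, with Benjamini-Hochberg adjustment over all genes tested and a threshold of 0.05. A fold change on this scale understates that of low genes. Differences of effects between lines came from 1 limma model of all 18 samples. The script was tested on simulated data. The study's methods state biological repeats and mutants combined from several litters, but neither they nor the labels tie single RNA-seq samples to embryos or litters, and p-values measure only the spread between these samples.

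In the Rptor line, samples with the same replicate number deviated together (r = 0.221, 0.330 and 0.259), a pairing that comes from these correlations and not from the labels, and values with the number as a block are given where they change a call. Alternatives were DESeq2 1.42.0 and edgeR on the recovered reads, a pseudocount of 0.1, no filter, a minimum mean of 50, TMM factors, library totals, the block, all 18 samples in 1 fit, and each sample left out in turn. Those for Rdh10, Dhrs3 and Rara, and the list counts without single libraries, were added after seeing the data.

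The genes and lists were chosen with earlier results of these data known. All 10 genes are described, and, of both lists, each gene called in at least 2 lines and the 3 called genes of each line with the largest absolute fold change. Exon lengths came from GENCODE M21 on GRCm38, and promoter windows from RefSeq. Genes whose symbols a spreadsheet had turned into dates are listed under those dates.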

Additional observations from a re-analysis of the deposited data

Results flagged for a closer look

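For 3 of the 9 genes tested, limma on all 18 samples put the difference between 2 lines' effects (log2 scale) past the threshold. The Rptor effect minus the Tfam effect was -2.17 for Aldh1a7, -1.57 for Aldh1a1 and 0.54 for Aldh1a2. The Rptor effect minus the Cox10 effect was -2.37 for Aldh1a7, -1.78 for Aldh1a1 and 0.93 for Aldh1a2. All 3 deficient lungs lay on the same side of all 3 controls in each of the Rptor comparisons behind these values. The same held for 50.3% of all genes tested in that line. In the Cox10 line the Aldh1a2 groups overlapped. Of 6 epithelial markers, 6, 2 and 1 passed as lower after loss of Rptor, Tfam and Cox10. Over all genes tested, 18.2%, 2.63% and 0.335% did. Of 5 mesothelial markers 4, 0 and 0 passed as higher, where 16.6%, 2.03% and 0.141% of all genes did. The part of these markers in the differences was not tested.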

How the results depend on the processing

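Of 1192 values under an alternative, 1136 kept their direction and their side of the threshold, or, for counts, stayed within 1.5 times. With a replicate block, 5 of the 9 genes passed in the Tfam line, since Aldh1a2 (adjusted p = 0.0470 by limma) and Stra6 (adjusted p = 0.0395 by limma) were added. Same-numbered samples did not deviate together there (r = -0.312, -0.207 and 0.151), nor in every pair of the Cox10 line (r = 0.447, 0.202 and 0.0488). In the Rptor line the replicate block added the Cyp26b1 and Adh1 calls given above. With all 18 samples in 1 fit, 408 genes were called for Tfam and 317 for Cox10, 1 gene of the pathway and response lists passed in the Tfam line, Crabp1 lost both calls, and Cyp26b1 passed in the Rptor line. DESeq2 called 323 genes in the Cox10 line. The causes were not tested. Leaving out 1 sample at a time, the genes called ranged from 354 to 1114 (Tfam) and from 3 to 255 (Cox10), the retinoic acid genes called in the Cox10 line from 0 to 1, and the list genes called there from 0 to 1. The log2 fold change crossed 0 for Crabp2 in the Rptor line (-0.85 to 0.10), Aldh1a3 in the Tfam line (-0.32 to 0.055) and, in the Cox10 line, Aldh1a3 (-0.074 to 0.45), Crabp1 (-0.42 to 0.30), Crabp2 (-0.53 to 0.17), Rarb (-0.35 to 0.082), Cyp26b1 (-0.091 to 0.13), Rxrg (-0.65 to 0.20) and Adh1 (-0.24 to 0.44). With 3 samples a group, precision differed by line: the standard error of the log2 fold change of Crabp1 was 0.109 for Tfam and 0.430 for Cox10, and that of Crabp2 0.0887 for Tfam and 0.409 for Rptor.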
